A study of Mus musculus with 6 samples.

Results

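The cytotoxic granule genes Gzma, Gzmb, Gzmk, Gzmm, Prf1, Nkg7, Srgn and Ctsw and the cytokine gene Ifng were examined in bone marrow (BM) of mice that carried JAK3 M511I, an activating form of a Janus kinase. These 9 genes were chosen by name from the 54532 genes of the deposited table. RNA was sequenced from 3 libraries labelled Phf6 WT (WT 1 to WT 3) and 3 labelled Phf6 KO (KO 1 to KO 3), all from C57BL/6 mice at day 100 after transplantation. The comparison asks how gene expression in this bone marrow differed with loss of Phf6, a chromatin protein gene on the X chromosome.

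In the study, lineage-negative BM cells of male Phf6 fl/y donors (WT) or Cre-carrying Phf6 fl/y donors (KO) were transduced with a retrovirus for JAK3 M511I and GFP and were given to irradiated male recipients, so all 6 libraries share the kinase, the virus and the transplantation. The study used Vav1-Cre, active in blood-forming cells from the embryo on, in its primary transplants and in secondary transplants made from them. It used the inducible Mx1-Cre in another experiment. The day after transplantation does not tell whether these libraries come from primary or secondary transplants. The study describes RNA profiles of its Vav1-Cre model, while the labels of these libraries do not name the Cre and do not say whether GFP+ cells were sorted or how many mice stand behind a library. Some of the genotype labels read Phf7 or Phf8, a final digit that rises down the list, and were read as Phf6 from the design text. Separate animals are not stated, so the spread between libraries may be partly technical.

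Killer lymphocytes store perforin and granzymes in acidic granules and release them onto a target cell. Perforin, the product of Prf1, opens the target membrane, and the granzymes are serine proteases that then enter and cut proteins inside. Serglycin, from Srgn, is the proteoglycan core that packs the granule, Ctsw encodes the cysteine protease cathepsin W, and Nkg7 encodes a membrane protein of the granule. Interferon gamma, from Ifng, is a secreted cytokine made by the same cells and is not a granule protein. NK cells and effector CD8 T cells are the usual sources of this program.

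The values are FPKM, fragments scaled by gene length and by library size, and are therefore levels per length. They may be compared between genes, with a limit for WT 2 that is given below. The fragments per gene (called reads) were recovered from the table and came to 13015823 to 18235095 per library. The BM label was checked against markers: the T cell genes Cd3e and Cd8a were at 22.6 FPKM or more in all 6 libraries, while the neutrophil gene S100a8 was at 1725 FPKM or more in the WT-labelled libraries and at 77.1 or less in the KO-labelled libraries. WT 2 stood apart, with 17.1% of its reads in genes under 1000 bases compared with 3.11% to 5.01% elsewhere. Genes of 8000 bases or more held 6.74% of its reads compared with 22.9% to 26.5% elsewhere. Shares, orders and ratios of genes that differ in length therefore carry this limit in WT 2. WT 2 also held most of the globin RNA, with Hbb-bs (beta globin) at 19603 FPKM compared with 2.43 to 157 elsewhere. For this reason, values without WT 2 are given beside several results. Phf6 RNA was at 3.67 to 8.02 FPKM in the WT-labelled and at 5.11 to 6.73 FPKM in the KO-labelled libraries (limma, adjusted p = 0.893), so it did not separate the groups and every direction below rests on the labels. The conditional allele removes only part of Phf6, which a value per gene cannot show. In bulk RNA, fewer cells of a type and less RNA per cell cannot be told apart.

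Of the 9 genes, 8 were lower and 1, Gzma, was higher in the KO-labelled libraries (limma on log2(FPKM + 1), adjusted p under 0.05 over all 13393 genes that reached 1 FPKM in 3 or more libraries). All 9 genes passed this filter, but Gzmk reached 1 FPKM in the WT-labelled libraries only. Some genes named below likewise reached it in 1 group only. Among them Klra7, Klrb1c, Klre1, Stx7, Il18r1, Il18rap, Eomes, Fasl and Cldnd2 did so in the WT-labelled libraries. Khdc1a, Iigp1 and Ccr9 did so in the KO-labelled libraries. Such genes, like Gzmk, entered the test only through the group in which they were high, so their calls describe that difference and are no independent support for it. Across all genes tested, 13.3% were called lower and 13.1% higher. The values of the groups did not overlap for any of the 9 genes, compared with 49.1% of all genes. The median log2 fold change of the 9 genes was -3.23, beside 0.086 for all genes. The direction of each of the 9 genes was the same under every alternative scaling tried, although rescaling to TPM moved the median of all tested genes to 0.78 and the calls from 1754 higher and 1785 lower to 2932 higher and 1339 lower. Without WT 2, again 8 genes were lower and Gzma was higher, with 25.3% of all genes called lower and 26.8% called higher. Counts of list genes below have these shares, or 13.3% and 13.1% for all 6 libraries, as their background.

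**Figure D1:**
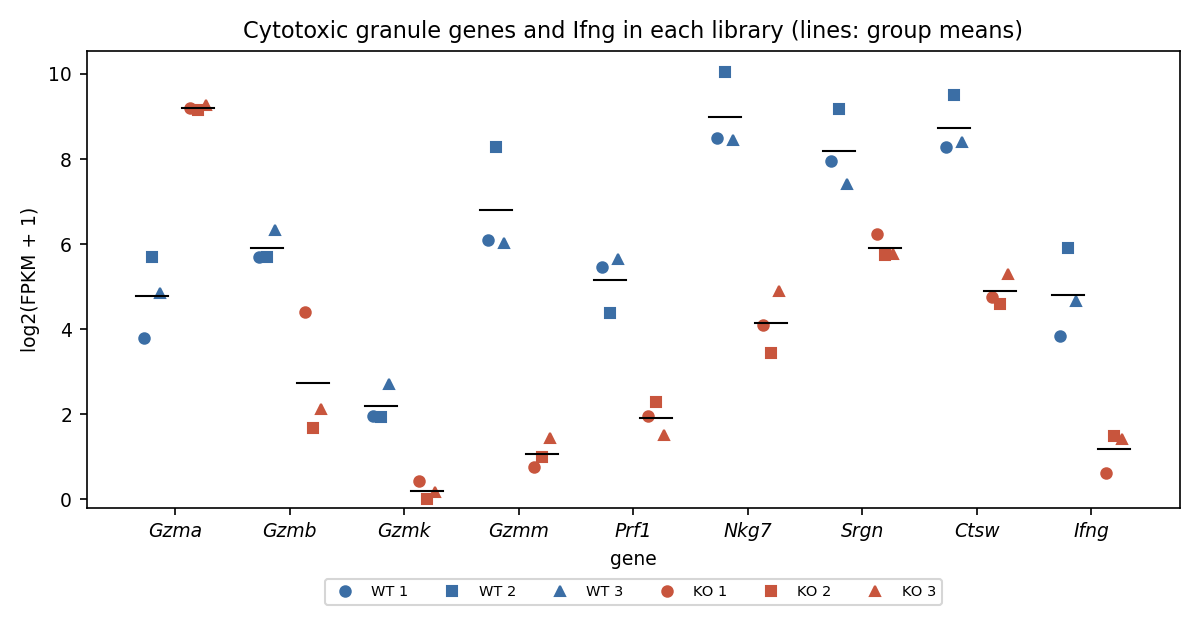
Level of each of the 9 genes in each library, as log2(FPKM + 1). Blue marks are the 3 WT-labelled and red marks the 3 KO-labelled libraries, black lines are group means, and Gzma is the 1 gene whose red marks lie above the blue ones.

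**Figure D2:**
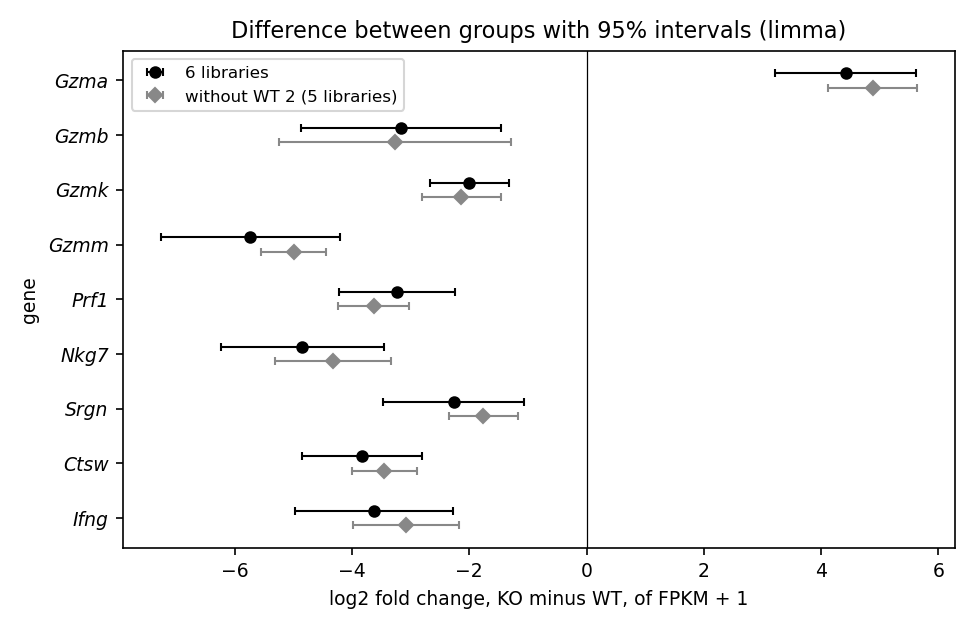
Log2 fold change of each gene, KO-labelled minus WT-labelled, on the log2(FPKM + 1) scale, with the 95% interval from limma for all 6 libraries (black) and for 5 libraries without WT 2 (grey). The Gzma interval lies above 0 and the other 8 intervals lie below 0 in both fits.

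Gzma (ENSMUSG00000023132, GRCm38 chromosome 13, 113093825 to 113100981, minus strand) encodes granzyme A, a granzyme that cuts after basic residues. Its FPKM was 12.9, 50.8 and 27.9 in WT 1, WT 2 and WT 3 and 587, 566 and 615 in KO 1, KO 2 and KO 3. The KO-labelled libraries lay close together, and the highest WT-labelled library was far below the lowest of them. The means were 30.5 ± 19.1 and 590 ± 24.8 FPKM (SD, n = 3 each), so Gzma was 19.3-fold higher in the KO-labelled libraries. On the log2 scale it was higher by 4.42 (standard error, SE, 0.50, limma adjusted p = 0.00165), which put Gzma above 99.6% of all genes tested. It rested on 200 to 601 reads in the WT-labelled and on 8964 to 11002 reads in the KO-labelled libraries.

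The other 3 granzymes in use went the opposite way. Gzmb (ENSMUSG00000015437, GRCm38 chromosome 14, 56258838 to 56262260, minus strand) encodes granzyme B, which cuts after aspartate and activates caspases. Its FPKM was 50.5, 50.8 and 79.9 in WT 1 to WT 3 and 20.2, 2.21 and 3.37 in KO 1 to KO 3. KO 1 stood nearer to the WT-labelled libraries than KO 2 and KO 3 did, but was still below all 3 of them. The log2 fold change was -3.17 (SE 0.71, limma adjusted p = 0.0193). Gzmb had the largest SE of the 9 genes, and its call was lost without WT 1, WT 3, KO 2 or KO 3 and after rescaling to TPM, where the adjusted p ranged from 0.0516 to 0.0856.

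Gzmm (ENSMUSG00000054206, GRCm38 chromosome 10, 79689020 to 79695261, plus strand) encodes granzyme M, an NK cell and innate lymphocyte granzyme. Its FPKM was 67.1, 310 and 64.4 in WT 1 to WT 3 and 0.693, 0.992 and 1.73 in KO 1 to KO 3. It thus fell from one of the more abundant granzymes to about the level of a single FPKM, and the high value in WT 2 was not needed for the difference. Its log2 fold change of -5.73 (SE 0.63, limma adjusted p = 0.00154) was the most negative of the 9 genes and became -4.99 without WT 2 (adjusted p = 6.43e-05).

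Gzmk (ENSMUSG00000042385, GRCm38 chromosome 13, 113171608 to 113225908, minus strand) encodes granzyme K, a trypsin-like granzyme that lies beside Gzma in the genome. It was the lowest of the 9 genes in every library, at 2.89, 2.82 and 5.57 FPKM in WT 1 to WT 3 and 0.348, 0 and 0.134 FPKM in KO 1 to KO 3. The counts behind these values were small, with 62, 46 and 120 reads in the WT-labelled and 9, 0 and 3 reads in the KO-labelled libraries. In KO 2, 0 reads allow up to 0.137 FPKM at a floor of 3 reads, so the 2 lowest libraries could not be told apart at this depth. The log2 fold change was -1.999 (SE 0.28, limma adjusted p = 0.00352), a value that the added 1 FPKM makes smaller.

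The remaining mouse granzymes, which lie in a cluster with Gzmb, were near or at 0. Gzmc had 6, 32 and 2 reads in the WT-labelled and 4, 1 and 0 reads in the KO-labelled libraries. Gzmf and Gzmg each had 1 read in KO 1 and 0 elsewhere, and Gzmd, Gzme and Gzmn had 0 reads in all 6 libraries. None of these 6 genes passed the filter, and none was tested.

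The granzymes were then compared with each other inside each library. Gzma made up 9.66%, 12.2% and 15.7% of the summed FPKM of Gzma, Gzmb, Gzmk and Gzmm in WT 1, WT 2 and WT 3. It made up 96.5%, 99.4% and 99.2% in KO 1, KO 2 and KO 3. Gzmm and Gzmb together held the larger part in the WT-labelled libraries, with Gzmm at 50.3%, 74.8% and 36.2% and Gzmb at 37.9%, 12.2% and 44.9%. The summed granzyme FPKM was not lower in the KO-labelled libraries. It was 133, 415 and 178 in WT 1 to WT 3 and 608, 569 and 621 in KO 1 to KO 3, so the total was higher in every KO-labelled library while its makeup narrowed to 1 gene. The log2 ratio of Gzma to Gzmb was -1.97, -0.00019 and -1.52 in WT 1 to WT 3 and 4.86, 7.9995 and 7.51 in KO 1 to KO 3. The groups differed by 7.95 on this scale, which does not depend on library scaling (exact permutation test, two-sided, p = 0.1, the smallest that 3 against 3 libraries allow). The ratio of Gzma to each of the other 8 genes was higher in every KO-labelled than in every WT-labelled library, with differences of 6.77 to 11.2. That these ratios did not overlap follows from the opposite changes of the genes.

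**Figure D3:**
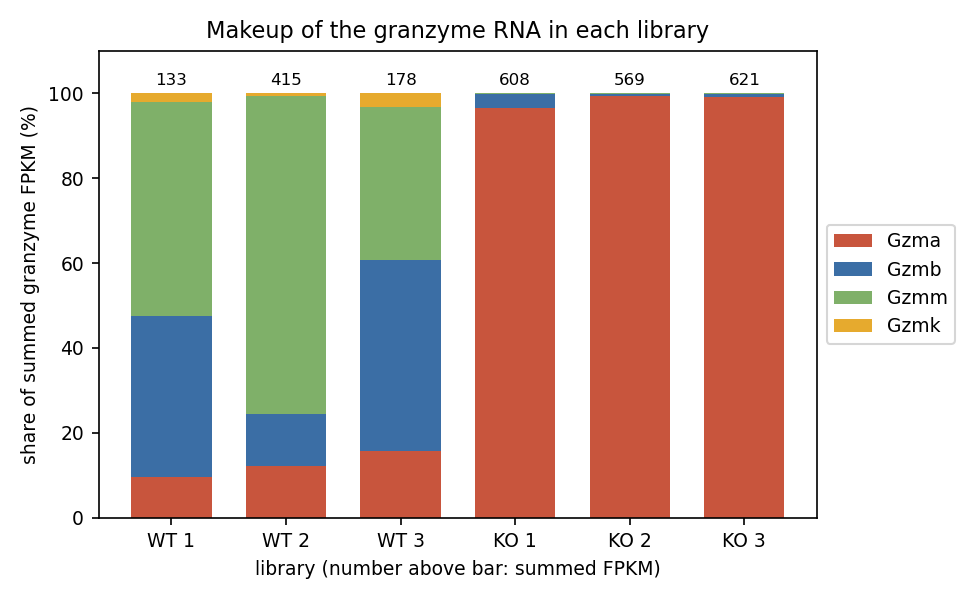
Share of Gzma, Gzmb, Gzmm and Gzmk in the summed FPKM of these 4 genes, as a stacked bar per library, with the summed FPKM above each bar. Gzma takes 9.66% to 15.7% in the WT-labelled libraries and 96.5% to 99.4% in the KO-labelled libraries.

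The start sites of Gzma and its neighbour Gzmk are shown first because these adjacent genes moved in opposite directions, and those of Gzmb and Prf1 because they are the classical granule pair that fell. The sequences are the 250 bases before the RefSeq start (GRCm38.p6), 5′ to 3′ on the strand of the gene. Capitals mark matches to the RUNX site TGTGGT or the T-box site TCACAC on either strand, the letters bound by Runx3 and by T-bet and Eomes, which are regulators of this program.
Gzma, chr13:113100982-113101231, minus strand: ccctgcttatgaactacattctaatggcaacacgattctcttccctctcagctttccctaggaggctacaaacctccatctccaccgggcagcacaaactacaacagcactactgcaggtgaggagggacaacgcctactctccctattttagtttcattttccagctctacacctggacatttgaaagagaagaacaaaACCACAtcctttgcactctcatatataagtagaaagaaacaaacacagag
Gzmk, chr13:113180966-113181215, minus strand: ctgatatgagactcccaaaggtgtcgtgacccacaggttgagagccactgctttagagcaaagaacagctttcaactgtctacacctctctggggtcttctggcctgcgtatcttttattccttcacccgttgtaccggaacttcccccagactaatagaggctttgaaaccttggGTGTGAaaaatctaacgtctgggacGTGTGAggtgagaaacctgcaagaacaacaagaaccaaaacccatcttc
Gzmb, chr14:56262335-56262584, minus strand: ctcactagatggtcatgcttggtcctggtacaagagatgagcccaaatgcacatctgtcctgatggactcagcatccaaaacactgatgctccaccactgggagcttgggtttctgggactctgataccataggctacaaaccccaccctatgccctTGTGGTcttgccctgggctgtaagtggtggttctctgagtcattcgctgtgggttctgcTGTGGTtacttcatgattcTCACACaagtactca
Prf1, chr10:61297586-61297835, plus strand: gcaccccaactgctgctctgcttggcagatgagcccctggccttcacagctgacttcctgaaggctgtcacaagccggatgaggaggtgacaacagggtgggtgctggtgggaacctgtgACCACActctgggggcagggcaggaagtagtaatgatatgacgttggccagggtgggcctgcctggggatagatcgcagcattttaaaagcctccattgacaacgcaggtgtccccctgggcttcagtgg
RefSeq held such sequences for 8 of the 9 genes, 10 in all because Gzmm and Srgn have an alternative start, and Ctsw is named only. The RUNX letters stood in the sequences of 6 of the 8 genes (Gzma, Gzmb, Gzmm, Nkg7, Prf1 and Srgn) and the T-box letters in those of 4 (Gzmb, Gzmk, Gzmm and Nkg7), which is 6 and 4 of the 10 sequences. Of all 32851 promoters of that length, 14% held the RUNX letters and 12.3% the T-box letters. Gzma had 1 RUNX match at -50 to -45 and no T-box match, and Gzmb had 2 RUNX matches and 1 T-box match. Prf1 had 1 RUNX match at -130 to -125 and no T-box match. The matches did not follow the direction of change. Prf1 and Srgn, which fell, had RUNX and no T-box letters as Gzma did, and Ifng, which fell, had neither. The RefSeq start of Gzmk lies 44943 bases inside the span that the table gives the gene, so its printed sequence belongs to the inner start. Matches of the STAT letters TTCNNNGAA stood in Gzmm, Ifng and Nkg7 (7.02% of all promoters), of the AP-1 letters TGANTCA in Gzmb (6.75%), of the ETS letters AGGAAG in Gzmm, Nkg7 and Prf1 (29.5%), and of the TATA letters TATAAA in Ifng and Srgn (12.4%). No match of one motif overlapped that of another. These are matches of letters and were not tested as binding sites.

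Gzma and Gzmk lie on the same strand of chromosome 13, 70627 bases apart. Esm1, which encodes an endothelial proteoglycan, lies on the plus strand inside the span of Gzmk and was looked at after its values were seen. Its FPKM was 0.680, 0.284 and 1.02 in WT 1 to WT 3 and 12.4, 12.96 and 17.7 in KO 1 to KO 3 (log2 fold change 3.22, SE 0.28, limma adjusted p = 0.000666). Cdc20b, 2630 bases from the other end of Gzma and likewise chosen after its values were seen, was at 0, 0 and 0.035 FPKM in WT 1 to WT 3 and at 0.881, 1.01 and 1.19 FPKM in KO 1 to KO 3, and was too low to be tested. Gzmk thus fell beside Gzma and Esm1, which both rose. Whether reads were counted by strand is not stated, and with 9, 0 and 3 reads for Gzmk in the KO-labelled libraries few Esm1 reads can have been counted for Gzmk there.

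Prf1 (ENSMUSG00000037202, GRCm38 chromosome 10, 61297833 to 61304680, plus strand) encodes perforin, without which granzymes do not reach the cytosol of a target. Its FPKM was 42.9, 19.7 and 49.0 in WT 1 to WT 3 and 2.89, 3.91 and 1.85 in KO 1 to KO 3. The lowest WT-labelled library, WT 2, was still above every KO-labelled library. Prf1 was 12.9-fold lower by group means, with a log2 fold change of -3.23 (SE 0.41, limma adjusted p = 0.00244). The opposite changes of Prf1 and Gzma moved the log2 ratio of Gzma to Prf1 from -1.73, 1.37 and -0.81 in WT 1 to WT 3 to 7.67, 7.18 and 8.38 in KO 1 to KO 3.

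Nkg7 (ENSMUSG00000004612, GRCm38 chromosome 7, 43437073 to 43438249, plus strand) encodes the granule membrane protein. Its FPKM was 359, 1053 and 349 in WT 1 to WT 3 and 16.2, 9.87 and 28.7 in KO 1 to KO 3. It was the most abundant of the 9 genes in each WT-labelled library and ranked 4 or 5 in the KO-labelled ones. The log2 fold change was -4.85 (SE 0.58, limma adjusted p = 0.00197), and -4.33 without WT 2 (adjusted p = 0.000622). Cldnd2, a claudin domain gene 2533 bases beyond Nkg7 and chosen after its values were seen, also fell, from 7.43 to 11.8 FPKM in the WT-labelled to 0.176 to 0.603 FPKM in the KO-labelled libraries (limma, adjusted p = 0.000767).

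Ctsw (ENSMUSG00000024910, GRCm38 chromosome 19, 5465240 to 5468498, minus strand) was second to Nkg7 in each WT-labelled library. Its FPKM was 309, 724 and 335 in WT 1 to WT 3 and 26.2, 23.3 and 38.2 in KO 1 to KO 3. The KO-labelled libraries lay within a narrow range, and the fall of 3.84 on the log2 scale had one of the smaller errors (SE 0.43, limma adjusted p = 0.00156).

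Srgn (ENSMUSG00000020077, GRCm38 chromosome 10, 62493833 to 62527451, minus strand), which many blood cells including neutrophils and mast cells also use for their granules, changed the least in fold. Its FPKM was 247, 581 and 168 in WT 1 to WT 3 and 74.8, 52.6 and 53.0 in KO 1 to KO 3. Its group means differed 5.52-fold, and Srgn ranked 3 of the 9 genes in each WT-labelled and 2 in each KO-labelled library. The log2 fold change was -2.27 (SE 0.50, limma adjusted p = 0.0186), or -1.76 without WT 2 (adjusted p = 0.00225). The call was lost without KO 1, KO 2 or KO 3 (adjusted p = 0.0580 to 0.0860).

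Interferon gamma RNA was read from Ifng (ENSMUSG00000055170, GRCm38 chromosome 10, 118441046 to 118445892, plus strand). Its FPKM was 13.2, 59.1 and 24.5 in WT 1 to WT 3 and 0.539, 1.81 and 1.68 in KO 1 to KO 3. The reads behind the KO-labelled values were 13, 37 and 35. Every KO-labelled library was below every WT-labelled one, with a log2 fold change of -3.62 (SE 0.56, limma adjusted p = 0.00497) that was -3.07 without WT 2 (adjusted p = 0.00146). Of the 50-base words in Ifng transcripts, 19.9% also occur in an overlapping uncurated transcript, and reads there may have been left out of the count. No other member shared such a word with another gene, so similar granzymes did not share sequence of this length.

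The order of levels differed between the groups. In the WT-labelled libraries the means fell from Nkg7 (587 ± 404 FPKM) over Ctsw (456 ± 233), Srgn (332 ± 219), Gzmm (147 ± 141), Gzmb (60.4 ± 16.9), Prf1 (37.2 ± 15.4), Ifng (32.2 ± 23.9) and Gzma (30.5 ± 19.1) to Gzmk (3.76 ± 1.57; SD, n = 3 throughout). Neighbours in this order overlapped in range except Gzmb with Prf1 and Gzma with Gzmk. In the KO-labelled libraries the means fell from Gzma (590 ± 24.8 FPKM) over Srgn (60.1 ± 12.7), Ctsw (29.3 ± 7.90), Nkg7 (18.3 ± 9.61), Gzmb (8.60 ± 10.1), Prf1 (2.88 ± 1.03), Ifng (1.34 ± 0.701) and Gzmm (1.14 ± 0.534) to Gzmk (0.161 ± 0.175). Here Gzma, Srgn and Ctsw had separate ranges, and so did Prf1 and Ifng, and Gzmm and Gzmk. Gzma was 1.17% to 2.53% of the summed FPKM of the 9 genes in the WT-labelled and 80.5% to 85.7% in the KO-labelled libraries. The other 8 genes summed to 1092, 2801 and 1075 FPKM in WT 1 to WT 3 and to 142, 94.7 and 129 FPKM in KO 1 to KO 3.

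The 9 genes were then set against single genes of the T cell receptor complex and of CD8. Cd3e, a chain of the receptor complex, was at 42.7, 22.6 and 60.0 FPKM in WT 1 to WT 3 and at 56.8, 44.5 and 53.7 FPKM in KO 1 to KO 3 (log2 fold change 0.40, SE 0.39, limma adjusted p = 0.505). Cd8a was at 189, 100.9 and 208 FPKM and at 321, 272 and 207 FPKM in the same order (log2 fold change 0.72, SE 0.41, limma adjusted p = 0.251). Neither of these T cell genes passed the test. Relative to Cd3e, the log2 ratio of Gzma was higher by 4.07 and those of the other 8 genes changed by -2.70 (Srgn) to -7.11 (Gzmm), each without overlap between the groups. The log2 ratio of Prf1 to Cd3e, for example, was 0.0054, -0.20 and -0.29 in WT 1 to WT 3 and -4.30, -3.51 and -4.86 in KO 1 to KO 3. Relative to Cd8a the same 9 genes were also without overlap, with Gzma higher by 3.76 and Gzmb at -4.20. Of all genes tested, 49.1% had FPKM values without overlap between the groups, and no such share was computed for ratios. An exact permutation test gave p = 0.1 for each of these ratios, the smallest possible, and 0.152 after adjustment over the 44 ratios computed.

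The choice of reference gene changed this comparison for 7 of the 9 genes. Trac, the constant region of the receptor alpha chain, fell in the same libraries and was added as a reference after the data were seen. Relative to Trac, the log2 ratios of Gzma and Gzmm still did not overlap, with differences of 8.30 and -2.89 (exact permutation p = 0.1 for both). The ratios of the other 7 genes overlapped between the groups, with differences of -1.12 (Nkg7) to 1.53 (Srgn) and exact permutation p of 0.2 to 0.9. The log2 ratio of Prf1 to Trac, for example, was -2.19, -3.89 and -2.21 in WT 1 to WT 3 and -3.86, -2.01 and -1.93 in KO 1 to KO 3.

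**Figure D4:**
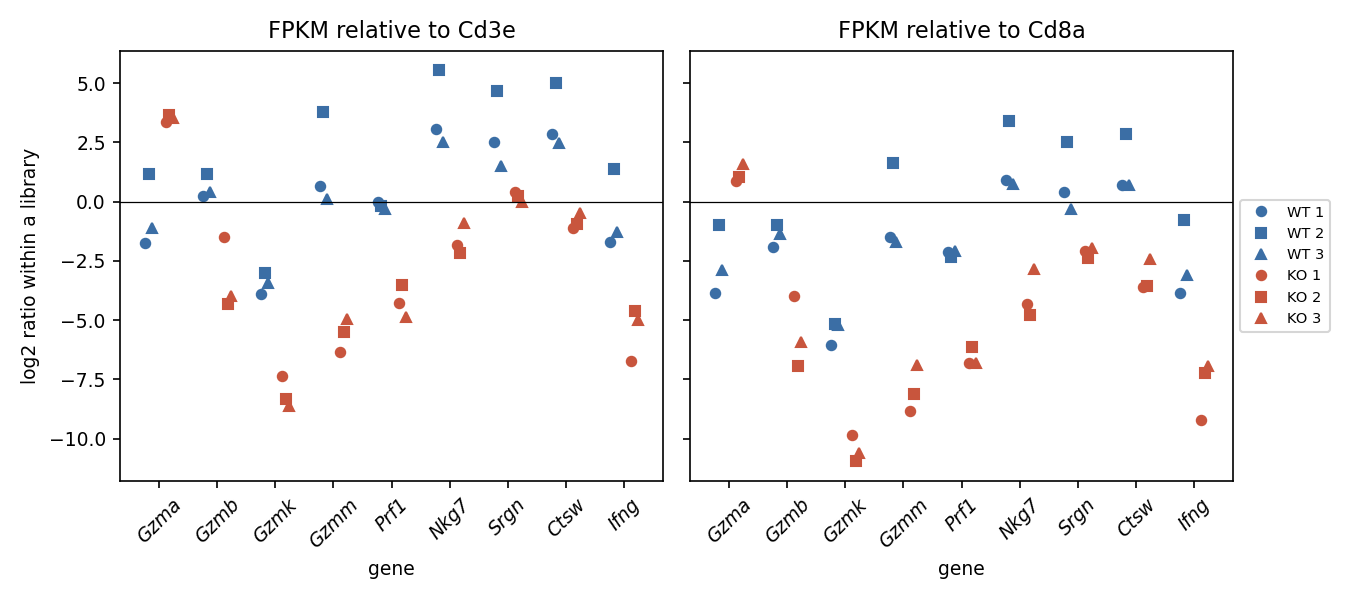
Log2 ratio of the FPKM of each gene to that of Cd3e (left) and Cd8a (right) within each library, with WT-labelled libraries in blue and KO-labelled libraries in red. Gzma is higher and the other 8 genes are lower in each red library for both reference genes.

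Relative to the NK cell receptor gene Ncr1 the picture was different. Ncr1 was at 5.55, 0.884 and 6.95 FPKM in WT 1 to WT 3 and at 0.139, 0.0825 and 0.0403 FPKM in KO 1 to KO 3. With 4, 2 and 1 reads in the KO-labelled libraries, values under 3 reads were set to that floor. The log2 ratios of the 8 genes to Ncr1 then overlapped between the groups, with differences of -2.04 (Gzmm) to 2.38 (Srgn) and exact permutation p of 0.3 to 1. Except for Gzmm, this overlap came from WT 2 alone, where Ncr1 had 16 reads. The Srgn ratio, for example, was 5.48, 9.36 and 4.60 in WT 1 to WT 3. In KO 1 to KO 3 it was 9.07, 8.73 and 8.78. Without WT 2, the ratios of these genes other than Gzmm were higher in every KO-labelled library, so they fell less than Ncr1 did. The ratio of Gzma to Ncr1 did not overlap and was higher by at least 9.15, since Ncr1 was at the floor in KO 2 and KO 3, where the ratios of the other genes are lower bounds too unless those genes were also at it. Ncr1 itself did not pass the filter and was not tested.

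Genes listed as markers of other cells moved with the same groups. Of 11 tested NK cell genes, 10 fell and 1 rose, with a median log2 fold change of -4.45. Effector CD8 T cells can also make some of the receptors on this list, and which cells made this RNA was not tested. Klrd1, which encodes the CD94 receptor chain, fell from 106 to 204 FPKM to 0.496 to 1.63 FPKM (log2 fold change -6.21, limma adjusted p = 0.000259). Klra7, a Ly49 receptor gene, fell from 5.65 to 8.04 FPKM to 0 to 0.0491 FPKM (limma, adjusted p = 0.000386), and Klrb1c and Klre1 fell to 0.780 FPKM or less. The 1 gene on this list that rose was Khdc1a, at 0 to 0.171 FPKM in the WT-labelled and 22.0 to 55.0 FPKM in the KO-labelled libraries (limma, adjusted p = 0.000372), a gene that does not encode an NK cell receptor. The summed FPKM of all 16 NK cell genes was 689 to 1797 in the WT-labelled and 34.0 to 71.7 in the KO-labelled libraries. Khdc1a made up most of it in the latter, and Tyrobp and Fcer1g, which myeloid cells also use, most of it in WT 2. Without these 3 genes, a choice made after the data were seen, the sum was 630, 242 and 611 in WT 1 to WT 3 and 3.04, 1.20 and 5.15 in KO 1 to KO 3. Of those 16 genes, 4 or 5 were at 0 reads in each KO-labelled library, where the defining markers Ncr1, Klrb1c and Klre1 had 1 to 43 reads. Their part in the fall of the 8 genes was not tested. Gzma, in contrast, was higher in the 3 libraries in which these NK cell genes were lower.

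Myeloid genes fell too. All 12 neutrophil genes were lower in the KO-labelled libraries (median log2 fold change -6.70), among them Mmp9, Ltf and Ngp, which encode a gelatinase and proteins of the secondary granule. Of 7 tested genes of monocytes and macrophages 5 were lower, including Ly6c2, Ccr2 and the lysozyme gene Lyz2, which was at 289 to 4544 FPKM and at 2.53 to 14.1 FPKM (log2 fold change -7.38, and -6.48 without WT 2). The summed FPKM of the neutrophil list was 6841 to 93861 in the WT-labelled and 90.4 to 289 in the KO-labelled libraries. Srgn is also made by these cells, and their part in its fall was not tested. WT 3 had the lowest neutrophil sum of the WT-labelled libraries. Its Srgn, Nkg7 and Gzmm were the lowest of them, its Gzmb, Gzmk and Prf1 the highest, and its Gzma, Ctsw and Ifng lay between. By cell percentages, the study reported more myeloid and B cells among GFP+ marrow cells of its primary Vav1-Cre mice than in controls. It also reported more GFP+ cells in that marrow, and mainly lymphoid leukemia cells after secondary transplantation. The fall of myeloid RNA here thus runs against its primary marrow, and the reason was not tested.

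Several mast cell, B cell and erythroid genes were highest in WT 2. Cpa3, a mast cell protease gene, was at 3.46, 151 and 2.89 FPKM in WT 1 to WT 3 and at 0.0409 to 0.460 FPKM in the KO-labelled libraries. Of 4 tested genes of mast cells and basophils 1 was lower (Prss34, at -6.14 and at -4.07 without WT 2 on the log2 scale). This call was lost without WT 1 or any 1 KO-labelled library, without a filter on low values and with voom. Of 4 tested B cell genes 1 was lower (Ighm, at 696, 1378 and 1302 FPKM in WT 1 to WT 3 and at 14.7 to 68.1 FPKM in the KO-labelled libraries). Of 7 tested erythroid genes 0 passed by limma (3 had an unadjusted p under 0.05, all lower). Among other genes of these lists, Mcpt8, Cd79a, Cd79b, Slc4a1 and Alas2 had negative log2 fold changes that did not pass (limma, adjusted p = 0.0845 to 0.118), and Kit, a receptor also found on progenitors, had a positive one of 1.48 (limma, adjusted p = 0.0645). In these 3 lists 3, 4 and 3 genes were lower once WT 2 was left out. Of 5 tested genes of plasmacytoid dendritic cells 1 was higher, Ccr9, a chemokine receptor gene also used by T cell precursors, at 0.252 to 0.373 and at 9.53 to 11.0 FPKM, while Tcf4 and Bst2 did not pass (limma, adjusted p = 0.133 and 0.573) with WT 2 and passed without it, when 4 genes were higher. Siglech, the defining marker of these cells, had 0 reads in each KO-labelled library.

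The T cell list itself was mixed. Of 13 tested genes 3 fell and 1 rose, beside 13.3% and 13.1% of all genes tested. The median log2 fold change was -0.072. Cd4 rose from 1.45 to 2.90 FPKM to 50.5 to 98.4 FPKM (log2 fold change 4.67, limma adjusted p = 0.000415). Trac fell from 196, 292 and 226 FPKM in WT 1 to WT 3 to 41.8, 15.8 and 7.04 FPKM in KO 1 to KO 3 (log2 fold change -3.72, limma adjusted p = 0.00596), and Cd6 fell by 2.76 (adjusted p = 0.0072, a call lost after rescaling to TPM). Cd8b1 was at 276, 788 and 293 FPKM in WT 1 to WT 3 and at 141, 130 and 114 FPKM in KO 1 to KO 3 (log2 fold change -1.64, limma adjusted p = 0.0512, and 0.00189 without WT 2). Of 5 genes that mark gamma delta T cells, 3 rose, namely the receptor gamma constant genes Trgc2 (2.26, adjusted p = 0.0106, a call lost without KO 3) and Trgc4 (2.66, adjusted p = 0.00294) and the regulator Sox13 (3.35, adjusted p = 0.00203). A further gamma constant gene, Trgc1, was at 1.35 (limma, adjusted p = 0.0569). Trdc, the delta constant gene, was at 1.94, 14.8 and 2.80 FPKM and at 4.68, 3.42 and 7.09 FPKM (limma, adjusted p = 0.956). Without WT 2, 4 genes of the T cell list were lower and 4 higher, and 4 of the gamma delta list were higher. Gzma thus rose in the libraries in which Cd4, Trgc2 and Trgc4 rose and Trac fell.

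**Figure D5:**
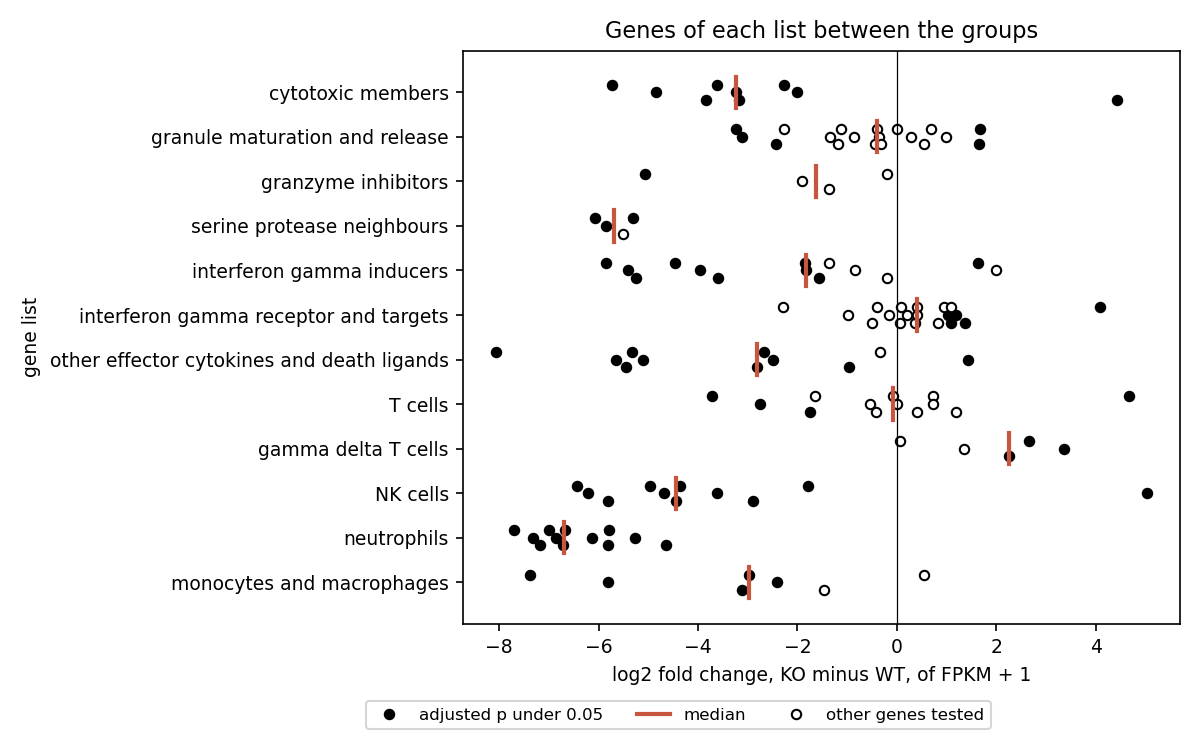
Log2 fold change of each tested gene in 12 lists, KO-labelled minus WT-labelled, on the log2(FPKM + 1) scale. Filled points passed an adjusted p of 0.05 (limma), open points did not, and red bars are medians, which lie at -3.23 for the 9 cytotoxic genes, -4.45 for NK cells, -6.70 for neutrophils and -0.072 for T cells.

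Most tested genes that act before interferon gamma were lower. Of 14 tested genes for receptors, kinases and transcription factors that induce Ifng, 9 were lower and 1 was higher, with a median log2 fold change of -1.83. Il18r1, a chain of the interleukin-18 receptor, was at 93.7, 39.3 and 132 FPKM in WT 1 to WT 3 and at 0.390, 0.171 and 0.658 FPKM in KO 1 to KO 3 (log2 fold change -5.84, limma adjusted p = 0.000492). Its partner Il18rap fell by 5.26 on the log2 scale (adjusted p = 0.00048). Tbx21 encodes T-bet, the factor that opens the Ifng locus, and fell from 36.8, 37.2 and 53.5 FPKM in WT 1 to WT 3 to 0.863, 2.30 and 2.35 FPKM in KO 1 to KO 3 (log2 fold change -3.97, limma adjusted p = 0.000553). Eomes, the related factor, and Il2rb, the shared receptor chain for interleukin-2 and interleukin-15, were named after their values were seen and had log2 fold changes of -4.47 and -5.41. Both receptor chains for interleukin-12 had positive values and were also named after these were seen. Il12rb1 rose by 1.63 (limma, adjusted p = 0.0367), a call lost without WT 1 or any 1 KO-labelled library, without a filter on low values, after rescaling to TPM and with voom. Il12rb2 was at 1.99 (limma, adjusted p = 0.0561, and 0.00433 without WT 2). Of the 14 genes, 12 were lower and 2 higher without WT 2, and 6 were lower and 0 higher after rescaling to TPM.

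Genes that act after interferon gamma did not fall as a group. Of 19 tested genes for its receptor, signalling and targets, 0 were lower and 5 were higher (limma), with a median log2 fold change of 0.40. Of all genes tested, 13.3% were lower and 13.1% higher. At an unadjusted p under 0.05 the list held 1 lower and 7 higher genes. The lower one was Irf8, named after its values were seen (log2 fold change -2.28, limma adjusted p = 0.0551). It passed with 0.1 or 0.5 FPKM added, after rescaling to TPM, with voom and without WT 2. Cxcl9, Cxcl10, Ciita and Nos2, also named after their values were seen, were too low to be tested and had lower means in the KO-labelled libraries. Iigp1, an interferon-induced GTPase gene, rose from 0.208, 0.436 and 0.765 FPKM in WT 1 to WT 3 to 26.0, 17.2 and 29.6 FPKM in KO 1 to KO 3 (log2 fold change 4.09, limma adjusted p = 0.000399). Igtp and Gbp3, which encode other interferon-induced GTPases, rose by 1.08 and 1.19 (adjusted p = 0.024 and 0.0296), calls that were lost without WT 1 or without any 1 KO-labelled library (that of Gbp3 also without WT 3) and with the replicate number as a block. Iigp1, Igtp and Gbp3 also respond to type I interferon. These 3 targets were thus higher in the libraries in which Ifng RNA was lower. Without WT 2, 3 genes of the list were lower and 9 were higher. Without WT 1, KO 1, KO 2 or KO 3 only 1 gene was higher, and with the replicate number as a block 2 were.

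Other effector molecules of killer lymphocytes mostly followed the 8 genes. Of 11 tested cytokine, chemokine and death ligand genes, 9 fell and 1 rose, with a median log2 fold change of -2.81. Fasl, the ligand of the death receptor Fas, fell from 63.9, 34.2 and 72.6 FPKM in WT 1 to WT 3 to 0.416, 0.164 and 0.545 FPKM in KO 1 to KO 3 (log2 fold change -5.34, limma adjusted p = 0.000292). Ccl5, a chemokine stored by killer cells, fell from 1162, 3977 and 1451 FPKM to 11.5, 1.98 and 8.41 FPKM (log2 fold change -8.06, limma adjusted p = 0.00065). Tnfsf14, which encodes the cytokine LIGHT, fell by 2.81 (adjusted p = 0.00203). The 1 gene that rose was Il10, named after its values were seen, which encodes an inhibitory cytokine (log2 fold change 1.43, limma adjusted p = 0.0355). It had 17, 1 and 21 reads in WT 1 to WT 3. This call too was lost without WT 1 or any 1 KO-labelled library, and also with 0.1 FPKM added, without a filter on low values and with voom.

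Of 19 tested genes for the maturation and release of granules 3 fell and 2 rose, beside 13.3% and 13.1% of all genes tested, and the median log2 fold change was -0.40. Stx7, a syntaxin of the endosome, fell from 13.04, 6.87 and 5.94 FPKM in WT 1 to WT 3 to 0.0555 to 0.0710 FPKM in the KO-labelled libraries (log2 fold change -3.11, limma adjusted p = 0.00107). Stx11, a syntaxin needed for granule release, fell by 2.43 (adjusted p = 0.0147), a call that was lost without KO 2 or KO 3. Sytl3, a synaptotagmin-like partner of Rab27a, rose from 14.4, 24.5 and 23.3 FPKM in WT 1 to WT 3 to 81.9, 59.2 and 57.6 FPKM in KO 1 to KO 3 (log2 fold change 1.65, limma adjusted p = 0.00935). Without WT 2, 7 of these genes were lower and 3 were higher, and without KO 2 or KO 3 there was 1 of each.

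Of 4 tested inhibitors of granzymes and related proteases, 1 was lower with all 6 libraries and 3 without WT 2. Serpinb1a, an inhibitor of neutrophil proteases, fell from 105, 176 and 28.2 FPKM in WT 1 to WT 3 to 1.33, 1.99 and 1.08 FPKM in KO 1 to KO 3 (limma, adjusted p = 0.00252). Serpinb9, the inhibitor of granzyme B, was at 54.9, 8.98 and 39.7 FPKM in WT 1 to WT 3 and at 6.61, 5.82 and 7.20 FPKM in KO 1 to KO 3. It did not pass (log2 fold change -1.91, limma adjusted p = 0.0704) but passed without WT 2, the WT-labelled library in which it was lowest (-2.66, adjusted p = 0.000208). Serpinb6b behaved alike, with -1.36 (adjusted p = 0.0838) and -1.90 without WT 2 (adjusted p = 0.000291).

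Serine protease genes that share a chromosomal cluster or ancestry with the granzymes but belong to myeloid cells were tested in 4 cases, of which 3 fell. Ctsg, which encodes cathepsin G and lies in the cluster of Gzmb, fell from 167, 385 and 40.3 FPKM in WT 1 to WT 3 to 2.23, 3.94 and 1.68 FPKM in KO 1 to KO 3 (log2 fold change -5.31, limma adjusted p = 0.00436). Elane and Prtn3, neutrophil elastase and proteinase 3 genes, changed by -6.07 and -5.85 on that scale (limma, adjusted p = 0.00661 and 0.00548). Without WT 2 the values of Ctsg, Elane and Prtn3 were -4.57, -4.99 and -4.87, and 4 of the 4 genes were lower.

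The 5 protein-coding genes outside the 9 whose log2(FPKM + 1) most closely followed the mean of the 9 over the 6 libraries were Dennd1c, Saraf, Casp1, Tpbgl and Psen2 (Pearson r = 0.999, 0.999, 0.998, 0.998 and 0.997). Dennd1c was at 43.1, 59.6 and 48.7 FPKM in WT 1 to WT 3 and at 21.2, 18.1 and 19.2 FPKM in KO 1 to KO 3. The points share libraries, and the parting of the groups alone makes such values high. Among the 9 genes, r with their own mean was 0.875 to 0.995 for the 8 that fell and -0.894 for Gzma.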

How the data were processed

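Total RNA of BM cells (Trizol) was made into NEBNext libraries and read in pairs on an Illumina NovaSeq instrument. The submitters' processing notes name HISAT2 2.0.5, featureCounts 1.5.0-p3 and the mouse build GRCm38 (mm10). The annotation release, the use of strand and the scaling between libraries are not given in the sources used here. The authors deposited FPKM per gene with gene lengths and coordinates, and 53585 of 54532 genes have the coordinates of the GENCODE annotation of that build. The study tested counts with DESeq2, for which the unit of these values is not suited.

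Multiplied by gene length, 100% of the FPKM values above 0 were whole numbers of reads (tolerance 0.02), which gave the reads. The recovered total was 1.55 times the size by which the authors divided in WT 2 and 0.827 to 0.994 times that size in the other libraries. A floor of 3 reads was 0.161 to 0.255 RPM of that size and covers counting error only. No replicates were identical or as close as sampling noise.

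Values were fitted as log2(FPKM + 1), which understates low genes, with limma 3.58.1 in R 4.3.3 (lmFit, eBayes with trend, two-sided, Benjamini-Hochberg over the 13393 genes with 1 FPKM in 3 of 6 libraries, threshold 0.05) and no covariate. Ratios were formed within libraries and compared by exact permutation tests. Other software was SciPy 1.17.1, NumPy 2.4.6, pandas 2.3.3, data.table (version 1.17.8) and Matplotlib 3.10.9 under Python 3.11.15. The fit was tested on simulated data.

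The 9 genes, the lists and the test were chosen with earlier results of these data known. Lists were written from general knowledge (16 besides the 9 genes) and are described by counts and medians. Named genes are the 9, the 6 other granzymes, up to 3 genes per list with the smallest p, set cell markers, Phf6 and the 5 genes most alike. Others are marked in the text, and 1 gene that the rule named is not reported here. Alternatives were pseudocounts of 0.1 and 0.5, other filters, scalings and variance models, the replicate number as a block, and each library left out. The ratios to Trac and the NK cell sum without 3 genes were added after the data were seen. Promoters (RefSeq, GRCm38.p6) were searched on both strands.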

Additional observations from a re-analysis of the deposited data

How the results depend on the processing

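Gzma was higher past the threshold in all 19 alternatives (log2 fold change 3.93 to 5.30), and no gene of the 9 changed direction in any of them. The number of lower genes was 8, 7 after rescaling to TPM (Gzmb lost) or with a mean FPKM of at least 5 (Gzmk untested), and 6 to 8 when each library was left out. Gzmb was not called in 5 and Srgn in 3 of the 19 alternatives, where their adjusted p reached 0.0856 and 0.0860 (limma). The other 6 genes kept their call wherever tested. Over the 16 other lists, 72 genes passed, 115 with array weights and 52 to 107 when each library was left out (107 without WT 2), and the cause was not tested. Over all genes the calls were 1785 lower and 1754 higher, with 1382 and 2440 for FPKM from the recovered total, 1327 and 1991 with voom on recovered reads, 4073 and 4388 with array weights, and 1469 and 1207 with the replicate block. With the replicate block, 8 of the 9 genes were lower, 1 was higher and 65 list genes passed. The replicate numbers did not pair the libraries (correlations of deviations 0.095, 0.105 and -0.153 between libraries of the same number), and KO 1 and KO 3 correlated best with WT 3 and WT 2. Depth limited Gzmk in the KO-labelled libraries (0 to 9 reads) and Ncr1 (1 to 4 reads), so their ratios are imprecise.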
